A study of Bos taurus with 4 samples.

Results

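The genes described here are 31 marker genes of leukocytes, the white blood cells, read in pools of bovine granulosa cells. They were chosen as genes that blood and tissue leukocytes in general, T cells, B cells or myeloid cells are known to express, and each was read at the brightest probe carrying its symbol in the platform annotation. Of the 31 genes, 30 had such a probe among the 15229 named genes of the array, and CD52 had none. In the comparison of donor groups 25 of the 30 entered the test, and 31917 of the 43794 probes (72.9%) were tested in all. By lineage, 13 genes are pan-leukocyte, 6 are T cell genes, 10 are myeloid genes, and 2, CD79A and CD74, stand for B cells and antigen presentation.

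Per the labels, granulosa cells came from Holstein cattle that had been stimulated and then coasted, meaning that hormone was withheld for a time, and were pooled by whether the donors gave oocytes of good or of poor developmental competence. The design text counts 94 heifers and cows and sets cows against heifers, while the title and the sample names speak of heifers, so age class and donor rating cannot be told apart here. The number of animals in a pool is not given in the sources used here. On each of 4 two-colour arrays of 1 slide, 1 good-donor pool was hybridised together with 1 poor-donor pool. Array 1 held good pool 1 and poor pool 9, array 2 good pool 2 and poor pool 10, array 3 good pool 3 and poor pool 11, and array 4 good pool 4 and poor pool 12. The good pool was in Cy5 on arrays 1 and 2 and in Cy3 on arrays 3 and 4. RNA was amplified linearly before dye labelling. The p-values measure the spread between these arrays, not between animals.

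Granulosa cells line the inside of the ovarian follicle behind a basal lamina, and blood vessels and most leukocytes lie outside it, in the theca. Leukocytes can reach follicular samples with blood from the puncture or by entering the follicle around ovulation. Pan-leukocyte genes encode proteins of the actin cytoskeleton, small GTPase signalling and surface antigens shared by white blood cells. CD3 chains belong to the T cell receptor complex, and the CD14, LYZ and CSF1R group marks monocytes and macrophages.

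Levels below are normalized log2 intensities of a probe in a pool, and ratios are log2 of good over poor on an array, so a negative ratio means a lower signal in the good-donor pool. A probe counts as above the control spots in a channel when its foreground was above 95% of that channel's dark and negative control spots, and probes above it in at least 4 of 8 channels were tested. In the whole series 24568 of 43794 probes (56.1%) were above the control spots in all 8 channels. The ratios were wider on array 4 (SD 0.420 over tested probes) than on the other arrays (SD 0.274 to 0.318). All 13 granulosa genes listed as a check were tested, and the brightest, SERPINE2, INHBA and INHA, had mean levels of 15.09, 14.96 and 14.91 over the 8 pools.

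Signal above the control spots was found for most of the leukocyte genes. Of the 30 genes with a probe, 22 were above the control spots in all 8 pools and 2 in none. The pan-leukocyte group had 9 of 12 genes above in all 8 pools, the T cell group 4 of 6, and the myeloid group 8 of 10. CD79A, the signalling chain of the B cell receptor, was not above the control spots in any pool, and its levels lay between 6.04 and 6.15. ITGAM, the integrin alpha M chain of neutrophils and macrophages, was likewise not above them in any pool, with levels between 5.72 and 5.85. CD37, a tetraspanin, was above in 1 good-donor and 1 poor-donor pool, LCP1, an actin-bundling protein, in 1 and 2, and ITGB2, the shared beta chain of leukocyte integrins, in 2 and 1. These 5 genes were not tested, and a probe at the control level says nothing of whether its transcript was absent.

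**Figure D1:**
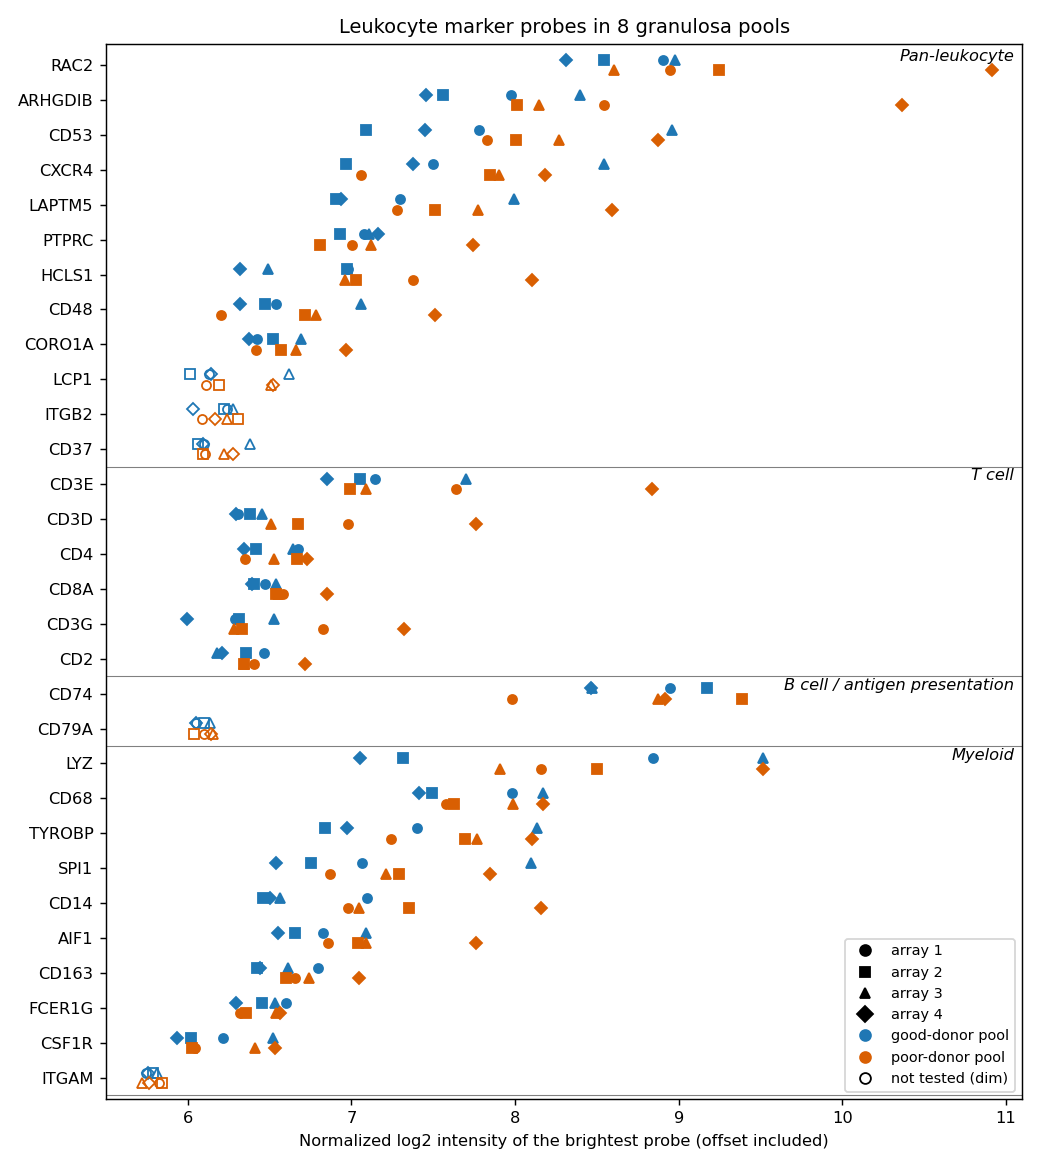
Normalized log2 intensity (x axis) of the brightest probe of 30 leukocyte marker genes (y axis, by lineage) in 4 good-donor pools (blue) and 4 poor-donor pools (orange), with a marker shape for each array and open markers for the 5 genes that were not tested. The poor-donor pool of array 4 (orange diamonds) was the highest of 8 pools for 17 of the 25 tested genes.

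No member separated the donor groups past the adjusted threshold. In the limma test over 31917 probes, 0 probes had an adjusted p under 0.05 (0% of tested probes; smallest adjusted p = 0.622), and adjusted p was 1 for each of the 25 genes. An unadjusted p under 0.05 was reached by 0 of the 25 genes, against 1132 of all tested probes (3.55%). That 0 depended on the processing, although every alternative run called 0 probes after adjustment. An unadjusted limma p under 0.05 was reached by CD3D without background subtraction, and by CD3D and CD14 with plain subtraction, quantile normalization, median foreground or an intensity trend. HCLS1, CD3D and CD14 reached it with median centring, separate channels or the authors' deposited ratios. With a dye term, array weights or another filter on dim probes no member did. Among the 31917 tested probes, 1138 reached it without background subtraction, 632 with median centring, 1112 with separate channels and 1113 with the deposited ratios. With plain subtraction, quantile normalization, median foreground or an intensity trend 864 to 1214 probes did. The numbers were 1839 with a dye term and 1212 with array weights. When an array was left out, CD74 and CD14 reached it without array 1, CD3D without array 3 and HCLS1 without array 4. Without array 2 no member did. Of the 31917 tested probes, 1705, 1370, 923 and 1104 reached it when arrays 1 to 4 were left out in turn. The mean ratio was below 0 for 24 of 25 genes, against 50.8% of all tested probes, and its median was -0.21 over the 25 genes and 0.00 over all probes. All 25 genes are read in the same 8 pools, so this count is not 24 separate observations. Without array 4 the mean was below 0 for 14 of 25 genes, with a median of -0.03. The median was -0.37 without array 1 and -0.54 without array 3.

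The direction rested mostly on array 4. On that array all 25 genes had a negative ratio, against 49.5% of tested probes, and 14 of 25 were 2-fold or more lower in good pool 4 than in poor pool 12, against 2.27% of tested probes. The median ratio of the 25 genes was 0.08, -0.25, 0.12 and -1.19 on arrays 1 to 4, and that of all probes was 0.00, -0.01, 0.00 and 0.00. Array 2 leaned the same way as array 4, with 21 of 25 genes below 0, against 51.6% of tested probes. On arrays 1 and 3, 9 and 10 of 25 were below 0, against 50.1% and 49.8%. On arrays 1 to 3 a 2-fold lower signal in the good pool was found for 0, 1 and 0 of the 25 genes, against 0.254%, 0.608% and 0.677% of tested probes. LYZ was the member on array 2, and on array 3 it was 2-fold or more higher, as were 0.222% of tested probes. Array 4 held the lowest of the 4 ratios for 24 of 25 genes, against 28.7% of tested probes; the exception was CXCR4. Array 4 compares 1 pool with 1 pool and has no replicate. In pooled tissue, fewer cells of a type and less RNA per cell cannot be told apart.

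**Figure D2:**
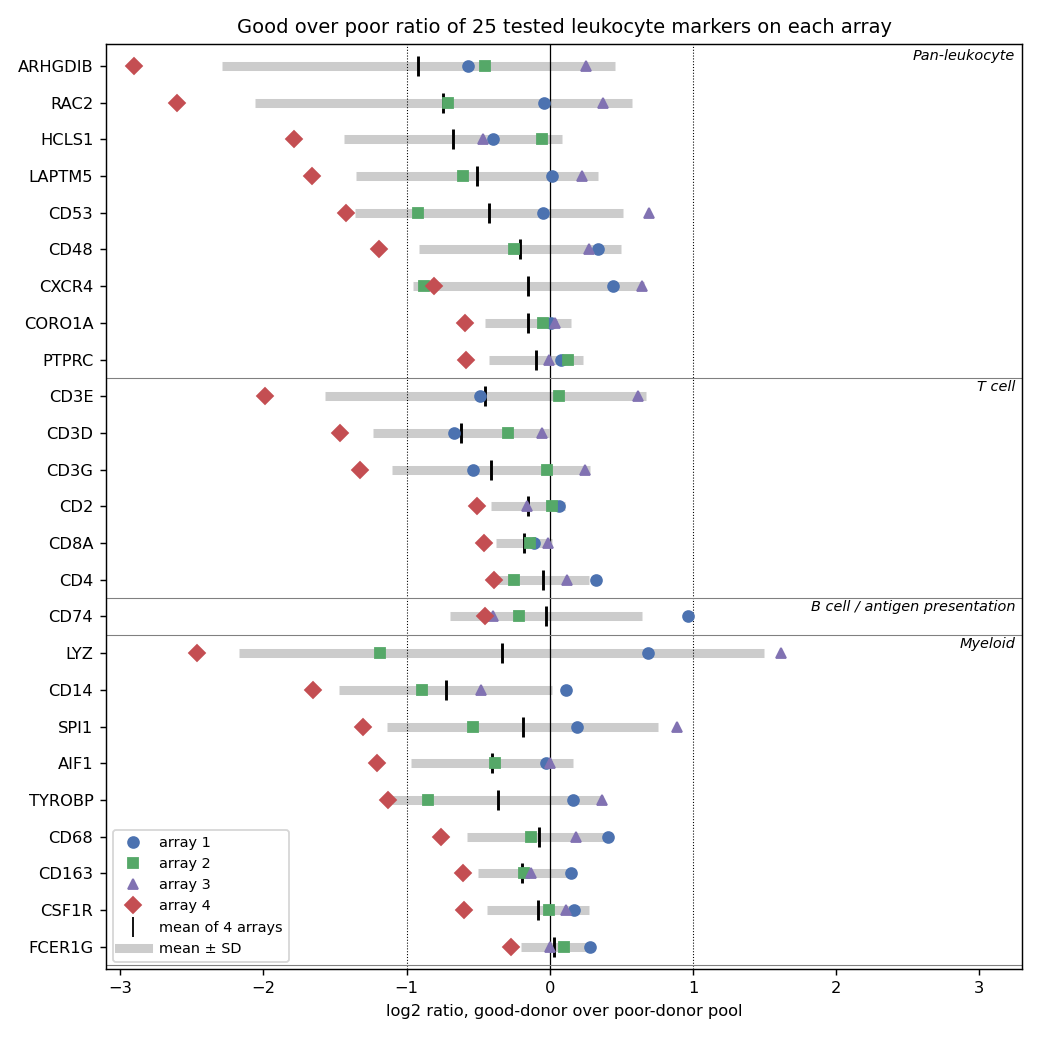
log2 ratio of good-donor over poor-donor pool (x axis) for the 25 tested leukocyte markers (y axis, by lineage), with 1 marker per array, a black bar for the mean of 4 arrays and a grey band for mean ± SD. Array 4 (red diamonds) lies below 0 for all 25 genes and at or below -1 for 14, while arrays 1 and 3 lie on both sides of 0.

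Among the pan-leukocyte genes, the largest ratios on array 4 belonged to ARHGDIB and RAC2. ARHGDIB, which is abundant in blood cells, had levels of 7.97, 7.56, 8.40 and 7.46 in good pools 1 to 4, and 8.54, 8.01, 8.15 and 10.36 in poor pools 9 to 12. Poor pool 12 stood above the 7 other pools, which overlapped between the groups. The ratios were -0.57, -0.45, 0.25 and -2.90, the last a 7.49-fold difference, and the mean was -0.92 ± 1.37 (SD, n = 4; limma 95% interval -2.30 to 0.46; adjusted p = 1). A second ARHGDIB probe was not above the control spots in any pool.

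RAC2, the Rac GTPase of blood cells, had levels of 8.90, 8.54, 8.98 and 8.31 in good pools and 8.94, 9.25, 8.60 and 10.91 in poor pools. Again poor pool 12 was the highest, at 30.7 times its control limit in raw foreground, and good pool 4 the lowest at 4.57 times. Its ratios were -0.04, -0.71, 0.37 and -2.60, with a mean of -0.74 ± 1.32 (SD, n = 4; adjusted p = 1). For both genes the SD over arrays exceeded the size of the mean. Without array 4 the mean was -0.26 for ARHGDIB and -0.12 for RAC2.

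LAPTM5, a lysosomal membrane protein of blood cells, had levels of 7.29, 6.90, 8.0 and 6.93 in good pools and 7.28, 7.51, 7.78 and 8.59 in poor pools. Its ratios were 0.01, -0.61, 0.22 and -1.66. The groups overlapped, with good pool 3 second to poor pool 12. A second LAPTM5 probe gave -1.65 on array 4, and the third, dimmer probe -0.26.

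CD53, a tetraspanin of white blood cells, differed from these in that its highest level was in a good-donor pool. Levels were 7.78, 7.09, 8.96 and 7.45 in good pools and 7.83, 8.01, 8.27 and 8.87 in poor pools, so good pool 3 and poor pool 12 were nearly equal. The ratios were -0.05, -0.92, 0.69 and -1.43. The second CD53 probe, above the control spots in 7 of 8 channels, gave 0.39 on array 3 and -0.39 on array 4. CXCR4, a chemokine receptor that is not restricted to leukocytes, had the same order of pools at the top, with 8.55 in good pool 3 and 8.18 in poor pool 12. Its ratios were 0.44, -0.88, 0.65 and -0.81.

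HCLS1, a cytoskeletal substrate of Lyn kinase in blood cells, was the only pan-leukocyte gene with a negative ratio on all 4 arrays. Levels were 6.98, 6.97, 6.49 and 6.32 in good pools and 7.38, 7.03, 6.96 and 8.10 in poor pools, and the ratios were -0.40, -0.05, -0.47 and -1.79 (mean -0.68 ± 0.76, SD, n = 4; adjusted p = 1). Good pools 1 and 2 and poor pool 11 lay within 0.02 of each other, and elsewhere the poor pools were higher. Its 2 other probes, also above the control spots in all 8 channels, gave mean ratios of -0.02 and -0.05 and ratios of 0.07 and -0.0020 on array 4, so the 3 probes disagreed.

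PTPRC, which encodes the CD45 phosphatase found on nearly all white blood cells, had smaller ratios. Its levels were 7.08, 6.93, 7.11 and 7.16 in good pools and 7.0, 6.81, 7.12 and 7.75 in poor pools. Apart from poor pool 12 the pools lay close together, and the mean ratio was -0.10 ± 0.33 (SD, n = 4; limma 95% interval -0.45 to 0.25). CD48, an adhesion molecule, had ratios of 0.34, -0.25, 0.27 and -1.19. CORO1A, an actin-binding coronin, had 0.01, -0.05, 0.03 and -0.60.

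Within the T cell group, the 3 CD3 chains had negative ratios on arrays 1 and 4. CD3E had levels of 7.15, 7.05, 7.70 and 6.85 in good pools and 7.64, 6.99, 7.09 and 8.83 in poor pools, with ratios of -0.49, 0.06, 0.61 and -1.99. CD3D had 6.30, 6.38, 6.45 and 6.30 in good pools and 6.98, 6.67, 6.51 and 7.76 in poor pools. CD3D was the only tested member whose groups did not overlap, which 0.79% of tested probes reached in this direction.

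The CD3D ratios were -0.67, -0.29, -0.06 and -1.46, with a mean of -0.62 ± 0.62 (SD, n = 4; limma 95% interval -1.25 to 0.01; limma unadjusted p = 0.0518, adjusted p = 1). A second CD3D probe was above the control spots in 1 of 8 channels and gave a mean of 0.00. CD3G, the gamma chain, had 6.29, 6.31, 6.53 and 5.99 in good pools and 6.83, 6.33, 6.28 and 7.32 in poor pools. It was above the control spots in 3 of 4 pools of each group, and its ratios were -0.54, -0.02, 0.25 and -1.33. For all 3 chains the highest pool was poor pool 12, and for CD3D and CD3G the next was poor pool 9.

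The other T cell genes had smaller ratios than the CD3 chains on array 4. Mean levels over the 8 pools were 6.54 for CD8A, 6.54 for CD4 and 6.38 for CD2, against 6.49 for CD3G, so dimness did not set them apart. CD8A, the coreceptor chain of cytotoxic T cells, had ratios of -0.11, -0.14, -0.01 and -0.46, all negative, with a mean of -0.18 ± 0.19 (SD, n = 4). CD2, an adhesion receptor of T and natural killer cells, had 0.06, 0.01, -0.16 and -0.51. CD4, the coreceptor of helper T cells that some myeloid cells also carry, had 0.32, -0.25, 0.12 and -0.39. The offset of 50 intensity units in the background correction draws ratios of dim probes toward 0. With plain background subtraction the array 4 ratio was -1.76 for CD3D, -2.22 for CD3E and -0.71 for PTPRC. For CD8A, CD2 and CD4 it was -0.61, -0.71 and -0.53.

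Of the B cell and antigen presentation pair, only CD74 was tested. CD79A stayed at the level of the control spots, as given above. CD74, the invariant chain that accompanies MHC class II molecules in B cells, macrophages and some other cells, was above the control spots in all pools. Its levels were 8.95, 9.17, 8.47 and 8.46 in good pools and 7.98, 9.39, 8.87 and 8.92 in poor pools. The lowest pool was poor pool 9 and the highest poor pool 10, and the groups overlapped. The ratios were 0.97, -0.22, -0.40 and -0.45, with a mean of -0.03 ± 0.67 (SD, n = 4; limma 95% interval -0.71 to 0.66). Without array 1 the mean was -0.36, and limma's unadjusted p then fell under 0.05 with an adjusted p that did not.

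Among the myeloid genes, LYZ had the widest ratios. LYZ encodes lysozyme, an antibacterial enzyme of macrophages and neutrophils; cattle have several lysozyme genes, so signal from relatives cannot be told apart at this probe. Levels were 8.84, 7.32, 9.52 and 7.05 in good pools and 8.16, 8.50, 7.91 and 9.51 in poor pools. Good pool 3 and poor pool 12 were highest and equal within 0.01, while good pools 2 and 4 were lowest. The ratios of 0.69, -1.18, 1.61 and -2.46 changed sign from array to array, and the mean was -0.34 ± 1.83 (SD, n = 4; limma 95% interval -2.17 to 1.5).

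SPI1, which encodes the myeloid transcription factor PU.1, and TYROBP, the DAP12 signalling adaptor of myeloid and natural killer cells, shared this order. SPI1 levels were 7.06, 6.75, 8.10 and 6.54 in good pools and 6.87, 7.29, 7.21 and 7.85 in poor pools. TYROBP levels were 7.40, 6.84, 8.13 and 6.97 in good pools and 7.24, 7.69, 7.77 and 8.10 in poor pools. Their highest pool was good pool 3, followed by poor pool 12. SPI1 ratios were 0.19, -0.54, 0.89 and -1.31, and TYROBP ratios 0.16, -0.85, 0.36 and -1.13.

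CD14, the lipopolysaccharide coreceptor of monocytes, was not high in good pool 3. Its levels were 7.09, 6.46, 6.57 and 6.50 in good pools and 6.98, 7.35, 7.05 and 8.16 in poor pools. Good pool 1 lay above poor pools 9 and 11, and the other good pools lay below all poor pools. The ratios were 0.12, -0.89, -0.48 and -1.66, with a mean of -0.73 ± 0.74 (SD, n = 4; limma unadjusted p = 0.0557, adjusted p = 1).

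AIF1, a calcium-binding protein of macrophages, had ratios of -0.03, -0.38, -0.001 and -1.21 and was among the 4 members, with HCLS1, CD3D and CD8A, that were lower in the good pool on all 4 arrays. These 4 of 25 make 16.0%, against 4.18% of tested probes. All 25 were below 0 on array 4 alone, against 49.5% of tested probes. Which members these are depended on processing. Median centring put AIF1 and CD8A at 0.17 and 0.06 on array 3, and CD14 and CD2 below 0 on all 4 arrays. The deposited ratios put AIF1 and CD8A at 0.03 and 0.004 on array 3. CD68, a lysosomal protein of macrophages that other cells also express, had 0.41, -0.13, 0.19 and -0.76. CD163, the haemoglobin scavenger receptor of macrophages, had 0.14, -0.18, -0.13 and -0.61. CSF1R, the receptor for macrophage colony-stimulating factor, was above the control spots in 2 of 4 pools of each group and had 0.17, -0.01, 0.11 and -0.60. FCER1G, an Fc receptor signalling chain, was the only member with a mean above 0, at 0.03 ± 0.23 (SD, n = 4; limma 95% interval -0.23 to 0.29).

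Set side by side, the lineages differed from array to array while sharing the negative ratios of array 4. On array 1 the T cell median was -0.30 with 4 of 6 genes below 0, the 3 CD3 chains were all below 0 with a median of -0.54, the pan-leukocyte median was 0.01, and the myeloid median was 0.17 with 8 of 9 genes above 0. With median centring the array 1 myeloid median was 0.033, with 3 of 9 genes below 0. Array 2 had a myeloid median of -0.38 (8 of 9 genes below 0), a pan-leukocyte median of -0.45 (8 of 9 below 0) and a T cell median of -0.08. On array 3 the medians were 0.25 for pan-leukocyte, 0.05 for T cell and 0.11 for myeloid genes. On array 4 they were -1.43, -0.92 and -1.13, with 6 of 9, 3 of 6 and 5 of 9 genes at 2-fold or more. Across all tested probes 50.1%, 51.6%, 49.8% and 49.5% were below 0 on arrays 1 to 4. The difference between lineages was not tested.

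**Figure D3:**
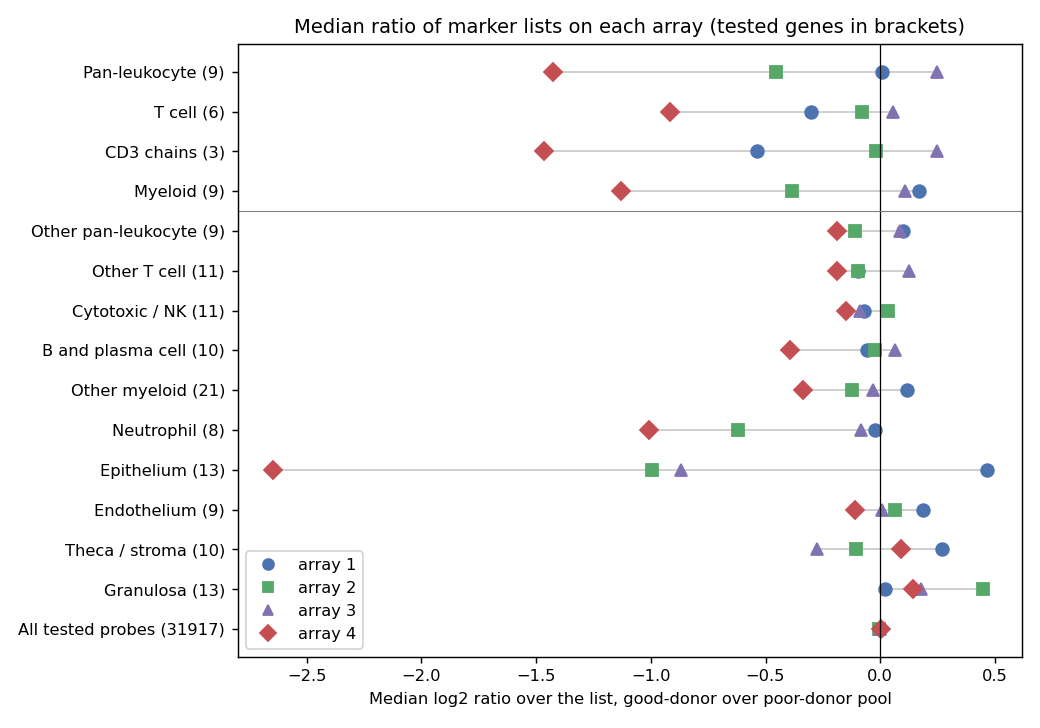
Median log2 ratio of good over poor (x axis) on each of 4 arrays for the leukocyte lineages (above the line), for other marker lists and for all tested probes (y axis, number of tested genes in brackets). On array 4 the pan-leukocyte, T cell and myeloid medians lie between -1.43 and -0.92, the epithelium median at -2.65 and the granulosa median at 0.14. The other pan-leukocyte, other T cell, cytotoxic, B and plasma cell and other myeloid medians lie between -0.39 and -0.15 on that array. Single granulosa genes ranged from -0.68 to 1.96 on array 4, with 5 of 13 below 0. On array 1 the CD3 chains lie at -0.54 and the myeloid genes at 0.17.

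The levels by pool were highest in poor pool 12 for most genes. Good pool 3 was highest for fewer, at a share nearer that of all tested probes. Poor pool 12 was the highest of the 8 pools for 17 of 25 genes (68.0%), against 15.3% of tested probes. Good pool 3 was the highest for 6 of 25 (24.0%), against 15.8%: CD53, CXCR4, CD68, LYZ, TYROBP and SPI1. Of these, CD68 had 8.17 in both good pool 3 and poor pool 12, LYZ 9.52 and 9.51, and TYROBP 8.13 and 8.10. The gap was wider for CD53, CXCR4 and SPI1. By lineage, poor pool 12 led for 7 of 9 pan-leukocyte, 6 of 6 T cell and 4 of 9 myeloid genes, and good pool 3 for 2, 0 and 4. The linear intensities of the 9 myeloid genes, offset included, summed to 2088 in good pool 3 and 2347 in poor pool 12, against 933 to 1548 in the other 6 pools. For the 9 pan-leukocyte genes the sums were 2433 and 5191, against 1342 to 1979, and for the 3 CD3 chains 388 and 833, against 258 to 439. The CD3 sum of 439 was that of poor pool 9, above good pool 3.

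**Figure D4:**
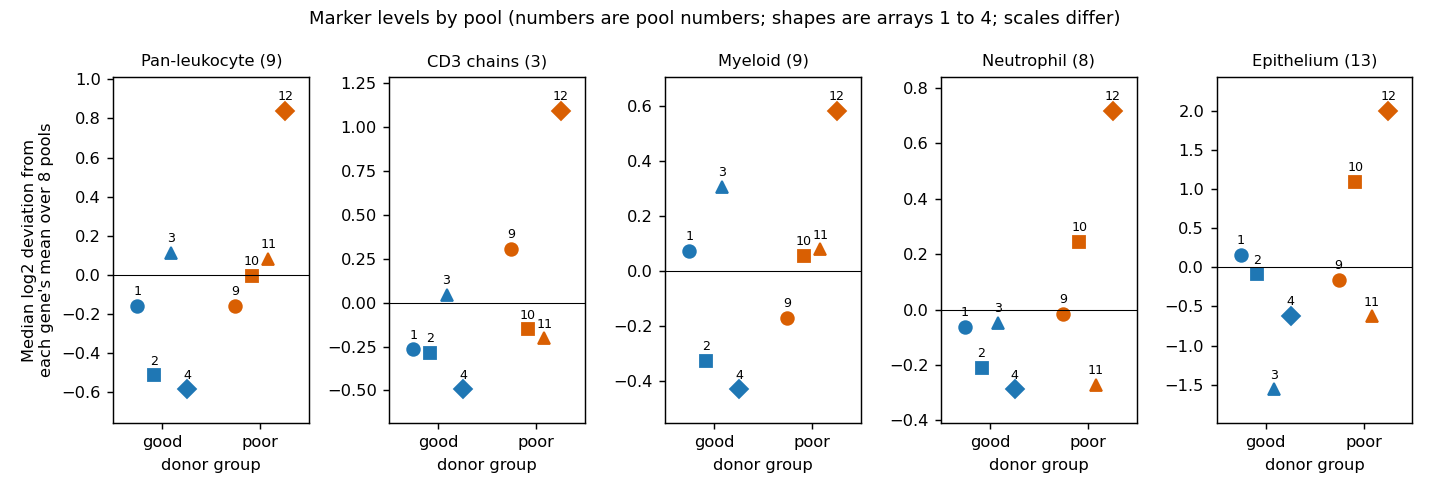
For each pool, the median over a marker list of each gene's log2 level minus that gene's mean over the 8 pools (y axis, scales differ between panels), by donor group (x axis); numbers are pool numbers and shapes are arrays. Poor pool 12 is highest in all 5 panels, and good pool 3 is second for myeloid genes (0.31) and lowest for epithelium (-1.56).

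Markers of other cells were high or low in some of the same pools. Of 13 tested epithelial genes, 13 were below 0 on array 4, with a median of -2.65; their summed intensity ranged from 8458 to 30464 in good pools and from 18351 to 81419 in poor pools, the highest in poor pool 12. None of the 16 epithelial genes with a probe was below the control spots in all channels. Of 8 tested neutrophil genes, 5 were below 0 on array 4, with a median of -1.01. Their sums ranged from 1496 to 10980 in good and from 3658 to 35970 in poor pools, again highest in poor pool 12, and ELANE was not above the control spots in any pool. The brightest of that list were LTF, S100A9 and S100A8, with array 4 ratios of -3.94, -4.67 and -3.57. Over the 8 neutrophil genes the array 4 ratios ran from -4.67 to 0.48, and 4 of the 8 were above the control spots in all 8 channels. Good pool 3 had the lowest sums of all 8 pools in both lists, 8458 and 1496, beside its high myeloid sum. The neutrophil sums weigh LTF most, whose mean level was 12.33, against 8.27 for S100A9, the next brightest. By the median over genes of log2 level minus each gene's mean over the 8 pools, good pool 3 was lowest for epithelium (-1.56). For neutrophil genes good pool 3 was not lowest by this median, at -0.05, and the lowest was good pool 4, at -0.29. The part of epithelial and neutrophil RNA in the array 4 ratios was not tested.

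Blood genes were read beside the leukocyte genes. HBB, the beta chain of adult haemoglobin, had levels of 6.73, 6.87, 9.03 and 7.02 in good pools and 6.82, 7.83, 7.53 and 8.30 in poor pools. Its 2 highest pools were good pool 3 and poor pool 12, the same 2 as for LYZ, CD53 and SPI1, and its ratios were -0.09, -0.95, 1.5 and -1.29. HBA, the alpha chain, was instead highest in good pool 1 at 8.48, with ratios of 1.87, -0.76, 0.24 and -0.48. Of 6 tested platelet and red cell genes, 6 were below 0 on array 2, 6 above 0 on array 3 and 4 below 0 on array 4, and their summed intensity ranged from 664 to 1192 in good pools and from 738 to 969 in poor pools. The part of blood in the leukocyte signal was not tested.

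Of the other genes of the same lineages, 0 passed the adjusted threshold. Their medians on array 4 were -0.19 for pan-leukocyte, -0.19 for T cell and -0.15 for cytotoxic and natural killer genes. They were -0.39 for B and plasma cell and -0.34 for myeloid genes, against -1.19 over the 25 members. Of 11 tested T cell genes, such as the T cell kinase gene LCK, 7 had a mean below 0 (median -0.05), 9 were below 0 on array 1, and 3 were 2-fold or more lower on array 4. LCK had ratios of -0.18, -0.07, -0.25 and -1.80, LAT, an adaptor of the T cell receptor, -0.30, -0.49, 0.30 and -0.46, and TCF7, a transcription factor, -0.23, 0.10, 0.31 and 0.12. CD5, CD28, TRAT1, IL7R, SH2D1A and BCL11B were not above the control spots in any pool. Of 11 cytotoxic and natural killer genes, 9 had a mean below 0 (median -0.04) and 2 were 2-fold or more lower on array 4.

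Of 21 other myeloid genes, 17 had a mean below 0 (median -0.07), 14 were above 0 on array 1 and 16 below 0 on array 2, and 5 were 2-fold or more lower on array 4. CTSS, the cathepsin of antigen-presenting cells, had levels of 8.61, 8.11, 8.48 and 7.66 in good pools and 8.92, 9.25, 8.65 and 10.79 in poor pools. The lowest poor level (8.65) was just above the highest good level (8.61), a separation that 0.79% of tested probes reached in this direction. The ratios were -0.32, -1.14, -0.17 and -3.13 (mean -1.19 ± 1.36, SD, n = 4; limma adjusted p = 1). C1QB, a complement chain of macrophages, had 0.42, -0.24, -0.82 and -1.19, and MYD88, a Toll-like receptor adaptor, 0.06, 0.13, 0.01 and -0.31.

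Of 10 tested B and plasma cell genes, 8 had a mean below 0 (median -0.06) and 2 were 2-fold or more lower on array 4. Their brightest probes were those of CD72, CD22 and MS4A1, with array 4 ratios of 0.09, -0.53 and -0.48. Of 9 other pan-leukocyte genes, 7 had a mean below 0 (median -0.05) and 1, the adhesion receptor CD44, was 2-fold or more lower on array 4, at -1.11. EVI2B, a membrane protein of blood cells, had 0.67, 0.07, 0.93 and -0.60. IKZF1, a lymphoid transcription factor, VAV1, an exchange factor, and ITGAL, an integrin chain, were not above the control spots in any pool.

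The dye orientation was compared with the signs of the ratios. A positive ratio on both arrays with the good pool in Cy5 and a negative one on both others, or the opposite, was found for 3 of 25 genes. These were PTPRC, CD2 and FCER1G, all positive with the good pool in Cy5. The share of all tested probes with such signs was not counted. The 3 brightest granulosa genes had the same signs: SERPINE2 (0.58, 1.16, -0.91 and -0.60), INHBA (0.78, 1.92, -1.33 and -0.68) and INHA (1.25, 1.76, -0.60 and -0.48). limma's dye term had an adjusted p under 0.05 for 0 probes and an unadjusted p under 0.05 for 0 of the 25 genes (smallest adjusted p among them 0.336). Arrays 3 and 4 shared an orientation and had medians of 0.12 and -1.19.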

How the data were processed

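The values started from deposited linear intensity, foreground and local background of each spot in both dyes, per the file headers, which name neither scanner nor software. Log2 ratios were deposited too, whose normalization and direction are not stated; against the scanner ratios (Pearson's r with good over poor -0.99, -0.97, -0.97 and -0.98 on arrays 1 to 4) they run as poor over good, with medians of 0.023, 0.0039, -0.015 and -0.029, and served as an alternative. Rows of column statistics below the spots were dropped.

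Mean foreground was corrected with median local background (normexp, offset 50), normalized by loess within arrays with control spots at weight 0 and by Aquantile between arrays, and signed as good over poor from the labelled dyes (limma 3.58.1, R 4.3.3). Probes with a foreground above the 95th percentile of 757 dark and negative control spots in at least 4 of 8 channels were tested with lmFit and eBayes (3 residual and 1.98 prior degrees of freedom), two-sided, with Benjamini-Hochberg adjustment over all tested probes and a threshold of 0.05. The fit was tested on simulated data. The number of arrays limits the precision. Symbols are those of the platform annotation, which is old; a gene is its brightest probe by mean level over 8 channels. All members are named; of other lists, at most the 3 brightest genes, genes below the control spots everywhere, and HBB and HBA as 2 of those 3. Separate channels used statmod 1.5.0. Alternatives changed background, normalization, filter, model, probe choice, source of values and arrays. The members and lists were chosen with earlier results of these data known.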

Additional observations from a re-analysis of the deposited data

Results flagged for a closer look

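Of 90 sets of 4 values examined (ratios and levels of the 25 tested genes, and medians and sums of the lineages), 8 had 1 value far from the other 3, against 4.5 by chance, since chance marks about 1 set in 20. The sets share pools and are not independent, and 5 of the 8 were on array 4. On array 4 the CORO1A log2 ratio was -0.60, with -0.05 to 0.03 elsewhere. In poor-donor pools, the level of CD2 was 6.72 in pool 12 against 6.34 to 6.40, and that of CD8A 6.85 against 6.54 to 6.58. The summed intensity of pan-leukocyte genes in poor-donor pools was 5191 in pool 12 against 1835 to 1979, and that of all 25 genes 9181 against 4021 to 4697. The CD74 ratio, and with it the median of its lineage list, which holds CD74 alone among tested genes, reached 0.97 on array 1, with -0.45 to -0.22 elsewhere. The CD14 level in good-donor pools was 7.09 in pool 1 against 6.46 to 6.57.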

How the results depend on the processing

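With all 4 arrays, 14 settings gave 0 probes past the adjusted threshold, 21 to 29 members with a lower mean and medians of -0.27 to -0.16. The 21 was of 22 members, those above the control spots in all 8 channels, and the 29 of 30, with the dim members included. The setting that left out spots marked as ignored by the scanner software was chosen after seeing the data. The mean of all tested probes of a gene involved no new fit, so its 0 is that of the main setting. In the 10 settings where array 4 was counted, 12 to 14 members were at 2-fold or more. Of these 10, the filters on dim probes and the ignored-spot setting used the main array ratios for the members. Leaving out an array gave 0 probes, 14 to 25 members with a lower mean, and medians of -0.54 to -0.03 over the members, -0.75 to -0.09 over pan-leukocyte, -0.43 to -0.06 over T cell and -0.54 to 0.09 over myeloid genes. Array 4 gave the count of 14 and the myeloid median of 0.09 when left out, and array 3 the lowest medians. Of 447 recomputed member means, 17 changed sign, 10 of them without array 4. The dye term, intensity trend, separate channels and filters on dim probes left each tested member's mean as it was. The scanner software had marked no member spot as ignored. Means under those settings could not change sign, so the 447 overstate the number of separate checks. Over all probes, the spots marked as ignored numbered 84 on array 4, and 5, 5 and 2 on arrays 1 to 3. With all arrays, the mean was 0.013 for CSF1R with median centring and 0.040 for CD4 with median foreground. With an array left out, the mean ranged from -0.17 to 0.064 for PTPRC, -0.39 to 0.12 for CD48, -0.41 to 0.092 for CXCR4, -0.80 to 0.062 for CD3E, -0.17 to 0.062 for CD4, -0.36 to 0.12 for CD74, -0.24 to 0.15 for CD68, -0.17 to 0.091 for CSF1R, -0.99 to 0.37 for LYZ, -0.55 to 0.18 for SPI1 and -0.059 to 0.12 for FCER1G (the cause was not tested). Of the members that kept their sign, it ranged from -1.31 to -0.26 for ARHGDIB, -1.12 to -0.12 for RAC2, -1.01 to -0.42 for CD14, -0.88 to -0.31 for HCLS1, -0.81 to -0.34 for CD3D, -0.75 to -0.12 for LAPTM5, -0.63 to -0.10 for CD3G and -0.80 to -0.09 for CD53, the end nearest 0 without array 4 for each. Median centring gave an array 1 median of -0.05 over the members. The fit of the 4 array ratios is itself the paired analysis, since each array pairs 1 good-donor with 1 poor-donor pool. Dim probes near the control spots limit the T cell and B cell readings.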

Other observations

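Other cells of the follicle wall had medians near 0 on array 4. Of 9 tested endothelial genes, 3 had a mean below 0 (median 0.05) and on array 4, 7 were below 0 (median -0.11) and 0 were 2-fold or more lower; PECAM1 and FLT1 were not above the control spots in any pool. KDR, a receptor for vascular endothelial growth factor, had ratios of 1.25, 0.07, -0.66 and 0.47. Of 10 tested theca and stroma genes, 5 had a mean below 0 (median 0.00), with a median of 0.09 on array 4. COL3A1, a fibrillar collagen, had ratios of 0.57, -0.42, -1.11 and -0.72. Of 4 tested mast cell genes, 2 had a mean below 0 (median 0.01), CPA3, a mast cell protease, was not above the control spots in any pool, and KIT, the stem cell factor receptor that oocytes and theca cells also carry, had 0.44, 0.42, -0.18 and -0.13. limma's test called 0 of these genes after adjustment.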
